A study of Mus musculus with 24 samples.

Results

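The genes that encode voltage-gated sodium channels and voltage-gated calcium channels were described in adult-born hippocampal neurons of the mouse and in the tissue around them. All genes whose symbol matched the sodium channel names (Scn, a number, and a or b) or the calcium channel names (Cacna, Cacnb and Cacng) were taken, which gave 39 of the 23306 genes in the deposited table. They comprised 9 sodium channel α subunits, 4 sodium channel β subunits, 4 L-type calcium channel pores, 3 pores of the P/Q, N and R types, 3 T-type pores, 4 α2δ subunits, 4 calcium channel β subunits and 8 γ subunits. The table lists the gene of the sodium channel α subunit Scn2a under its older symbol Scn2a1, which the naming rule does not take; its values are given beside the members and it is in none of their counts.

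Female C57BL6 mice carried the Tg(Nestin-cre/ERT2) transgene and 1 copy of an HA-tagged ribosomal protein gene (RPL22HA/WT, the RiboTag allele), so that tamoxifen switched on the tag in cells in which the Nestin promoter was active and in their progeny. All mice, runners and controls alike, received intraperitoneal tamoxifen, 160 mg per kg on each of 5 days, at 9 to 11 weeks of age. Running mice lived singly with a wheel and sedentary mice in the same cages with the wheel glued, for 11, 18 or 27 days of treatment time. RNA was sequenced from tagged ribosomes pulled down from the dentate gyrus (the precipitate, or IP, labelled as immature neurons) and from the dentate gyrus itself (the input), with 2 libraries for each of the 12 groups and 24 in all. Neither the number of mice behind each library nor whether replicate libraries were made from different animals is given, so p-values measure the spread between these libraries, which may be technical. The question was what ribosome-bound RNA these cells held as they aged and whether running altered it.

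Voltage-gated sodium channels carry the rising phase of the action potential. Each has a large pore-forming α subunit, and β subunits that alter gating and bind neighbouring cells and the cytoskeleton. Voltage-gated calcium channels turn electrical activity into calcium entry: L-type channels act mainly on the cell body and dendrites and on gene expression, P/Q-, N- and R-type channels serve transmitter release and dendritic calcium, and T-type channels open near the resting potential and favour bursts. The cytoplasmic β and the extracellular α2δ subunits bring calcium channels to the membrane, and most neuronal γ subunits are TARPs (transmembrane AMPA receptor regulatory proteins), which work with glutamate receptors rather than calcium channels. Young granule neurons of the dentate gyrus are known for T-type calcium currents and high excitability, and acquire mature firing as they age.

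Values were deposited as TPM, transcript abundances corrected for length and scaled to the same total in every library, which keep no read depth, so the depth of each library is unknown and no counting interval was given. Markers of the labelled cells were found where the labels place them: 8 of 8 immature neuron markers and 8 of 8 neural stem or dividing cell markers were higher in IP than in input, and 8 of 8 interneuron markers and 7 of 8 mature granule neuron markers were lower (limma, adjusted p under 0.05). Of 8 astrocyte markers 3 were higher in IP (Slc1a3, Aldoc and Gfap) and 3 lower (Aqp4, S100b and Gja1), with a summed level of 2636 to 5030 TPM in IP and 2232 to 3257 TPM in input. A few libraries stood apart. The noncoding RNA Rpph1 took 17.4% of all TPM in running IP library a of day 11 and 4.58% to 9.16% in the other 11 IP libraries. The mean level of 1122 olfactory receptor genes, which the dentate gyrus is not known to use, was 7.998 to 16.4 TPM in the 4 input libraries of day 18 and 1.06 to 5.54 TPM in the other 8 input libraries. In IP this level was 1.71 to 3.16 TPM at day 11, 2.39 to 3.42 TPM at day 18 and 2.79 to 4.99 TPM at day 27. It was lowest in the running (1.71 TPM) and sedentary (1.80 TPM) IP libraries a of day 11. Its part in the changes with time in IP was not tested. In bulk RNA, fewer cells of a type and less RNA per cell cannot be told apart.

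Most of the well-expressed members were expressed in both fractions. In IP, 25 of the 39 members had a mean of at least 10 TPM and 4 had at least 100 TPM; in input these counts were 25 and 8. Among sodium channel α subunits the order of mean level was the same in both fractions for the leading genes. Scn8a, the main channel of the mature axon initial segment where spikes start, led with 119 ± 20.3 TPM in IP and 143 ± 18.4 TPM in input (mean ± SD, n = 12 libraries). Scn3a, a channel best known from the embryonic brain, followed with 78.4 ± 13.3 TPM in IP and 52.8 ± 6.62 TPM in input. Scn1a, known for its role in interneuron firing, had 56.3 TPM in IP and 42.1 TPM in input, and Scn9a had 9.13 and 5.84 TPM. Scn2a1, the older symbol of the gene for the axonal sodium channel of young neurons, lay above all of them at 164 ± 25.8 TPM in IP. Of the α subunits taken by the rule, Scn8a made up 43.8% ± 4.1 of the summed TPM in IP and 56.1% ± 3.6 in input, and Scn3a 28.8% ± 1.6 and 20.7% ± 1.3. The muscle α subunit Scn4a, the sensory neuron α subunits Scn10a and Scn11a and the sodium-level sensor Scn7a had mean levels of 0.918 to 4.78 TPM in either fraction.

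Each class of calcium channel pores was dominated by 1 or 2 genes. Cacna1e, the R-type pore, had the highest mean of all members in IP, 219 ± 47.7 TPM, with 187 ± 26.3 TPM in input, and made up 61.2% ± 1.2 of the P/Q-, N- and R-type sum in IP and 62.5% ± 2.8 in input. The P/Q-type pore Cacna1a and the N-type pore Cacna1b had 78.5 and 59.0 TPM in IP. These 3 shares moved little between libraries: that of Cacna1e ranged from 58.0% to 62.9% over the 12 IP libraries. The L-type pores Cacna1c and Cacna1d had 91.2 and 65.6 TPM in IP, whereas the retinal pore Cacna1f and the skeletal muscle pore Cacna1s had 1.17 and 0.748 TPM. Of the T-type pores, Cacna1h made up 66.1% ± 3.9 of the sum in IP, Cacna1g 23.5% ± 5.2 and Cacna1i 10.4% ± 2.5; in input Cacna1g and Cacna1i were nearly level, at 17.7% ± 3.1 and 18.7% ± 2.9.

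Most accessory subunit genes were well expressed too. The sodium channel β genes Scn3b and Scn2b had 120 and 68.2 TPM in IP and 123 and 145 TPM in input, and Scn4b had 2.09 and 3.72 TPM. Cacna2d1 and Cacna2d3 had 92.7 and 63.6 TPM in IP, and Cacna2d2 and Cacna2d4 had 3.04 and 1.76 TPM. All 4 calcium channel β genes were expressed, from 46.6 TPM (Cacnb4) to 76.2 TPM (Cacnb1) in IP. Among γ subunits the TARPs Cacng8 (108 TPM), Cacng7 (78.1 TPM) and Cacng3 (56.1 TPM) led in IP, followed by Cacng4 (29.5 TPM), Cacng2 (19.9 TPM) and Cacng5 (17.2 TPM). Cacng1, the γ subunit of skeletal muscle, had 2.35 TPM, and Cacng6 had 1.38 TPM and was listed at 0 in 2 of the 12 IP and 2 of the 12 input libraries. The plot of member levels by library shows these classes side by side.

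**Figure D1:**
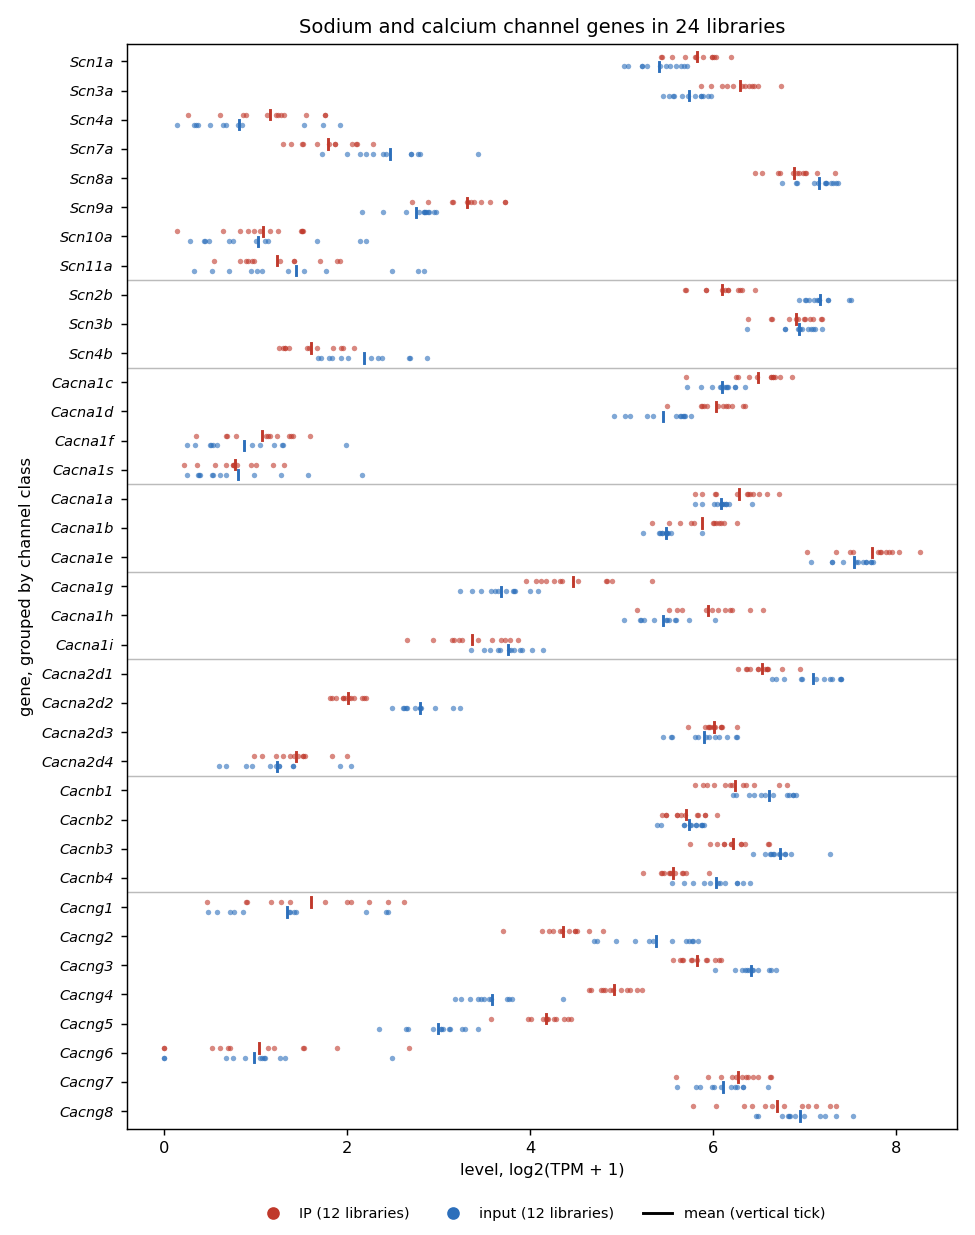
Level of each of 37 of the genes on the log2(TPM + 1) scale (x axis) in 12 IP libraries (red) and 12 input libraries (blue), with genes grouped by channel class on the y axis; points are libraries and vertical ticks are means. The points of Cacng4 and Cacng5 in IP lie to the right of all input points, and those of Scn2b and Cacna2d2 lie to the left.

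The first comparison asked which channel RNAs were more or less common on tagged ribosomes than in the tissue. Cacng4 and Cacng5, a pair of TARPs, stood highest in IP relative to input, and the sodium channel β subunit Scn2b was among the lowest. In the fit to all 24 libraries (limma on log2(TPM + 1), 19507 genes tested), 38 members could be tested. Of these, 27 differed, 13 higher and 14 lower in IP. Among all genes tested 69.9% differed, 41.4% higher and 28.5% lower, so the members' share was near the background. The members' median difference was 0.09 on the log2 scale and that of all genes 0.12. With median-of-ratios scaling in place of TPM as deposited, the median of all genes moved to -0.12 and the split became 9 higher and 18 lower; under that scaling Cacna1a and Cacna1e, which were 0.20 and 0.21 higher, were at -0.079 and -0.0736.

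Sodium channel genes differed in both directions. The α subunits Scn3a (0.55 ± 0.07), Scn9a (0.56 ± 0.10) and Scn1a (0.41 ± 0.08) were higher in IP (log2 difference ± standard error), and Scn8a (-0.27 ± 0.06) and Scn7a (-0.68 ± 0.12) were lower. Scn2a1 was lower, at -0.38 ± 0.08. Of the β subunits, Scn4b was lower (-0.58 ± 0.12) and Scn3b, at -0.03 ± 0.07, did not pass. Scn2b, a β subunit linked to the α subunit by a disulfide bond, ranged from 50.6 to 87.0 TPM in the 12 IP libraries (median 69.7) and from 122 to 182 TPM in the 12 input libraries (median 141). No IP library reached any input library, and the difference was -1.08 ± 0.06 (adjusted p = 2.0e-11).

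All 3 pores of the P/Q, N and R types were higher in IP, from 0.20 (Cacna1a) to 0.40 (Cacna1b), as were the L-type pores Cacna1c (0.40 ± 0.08) and Cacna1d (0.59 ± 0.09). At day 11 alone, however, Cacna1a had a mean of 60.4 TPM in IP and 73.4 TPM in input and was called lower (-0.27 ± 0.09), Cacna1e was at -0.26 ± 0.11 and did not pass, and Cacna1b had 46.5 and 46.7 TPM. Without the day 18 libraries Cacna1a (0.08, adjusted p = 0.375) and Cacna1e (0.05, adjusted p = 0.652) lost their call. The T-type pores divided: Cacna1g and Cacna1h were higher and Cacna1i was lower (-0.39 ± 0.08). Cacna1g, a pore known for burst firing, ranged from 14.5 to 39.2 TPM in IP (median 19.2) and from 8.39 to 15.9 TPM in input (median 11.9), a difference of 0.79 ± 0.08 (adjusted p = 8.3e-08) with overlapping ranges. None of the 4 α2δ or the 4 calcium channel β genes was higher in IP. Cacna2d1 (-0.56), Cacna2d2 (-0.78), Cacnb1 (-0.38), Cacnb3 (-0.51) and Cacnb4 (-0.47) were lower. Cacna2d3 and Cacnb2 were at 0.11 and -0.03 and did not pass.

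The γ subunits held the most positive differences of all members. Cacng4 ranged from 24.1 to 36.4 TPM in IP (median 28.6) and from 8.09 to 19.6 TPM in input (median 10.5). Cacng5 ranged from 10.9 to 20.9 TPM in IP (median 17.2) and from 4.10 to 9.80 TPM in input (median 7.20). For these TARPs every IP library was above every input library, and the differences were 1.34 ± 0.11 (adjusted p = 2.4e-09) and 1.18 ± 0.11 (adjusted p = 9.6e-09). Cacng2, the TARP also called stargazin, went the other way, with 12.1 to 26.7 TPM in IP (median 20.0) and 25.0 to 56.3 TPM in input (median 42.8). Its difference was -1.02 ± 0.09 (adjusted p = 6.0e-09), and the highest IP library lay just above the lowest input library. Cacng3 was also lower (-0.59). Cacng8 passed over all days (-0.25, adjusted p = 0.032), but its mean was 71.0 TPM in IP and 125.6 TPM in input at day 11 and 145.0 and 109.3 TPM at day 27, and its call was lost in 11 of 30 alternatives, among them without the day 18 libraries (-0.19, adjusted p = 0.209). Members whose libraries did not overlap numbered 2 on the higher side (10.1% of all genes) and 3 on the lower side (2.08% of all genes), among them Scn2b and Cacna2d2.

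**Figure D2:**
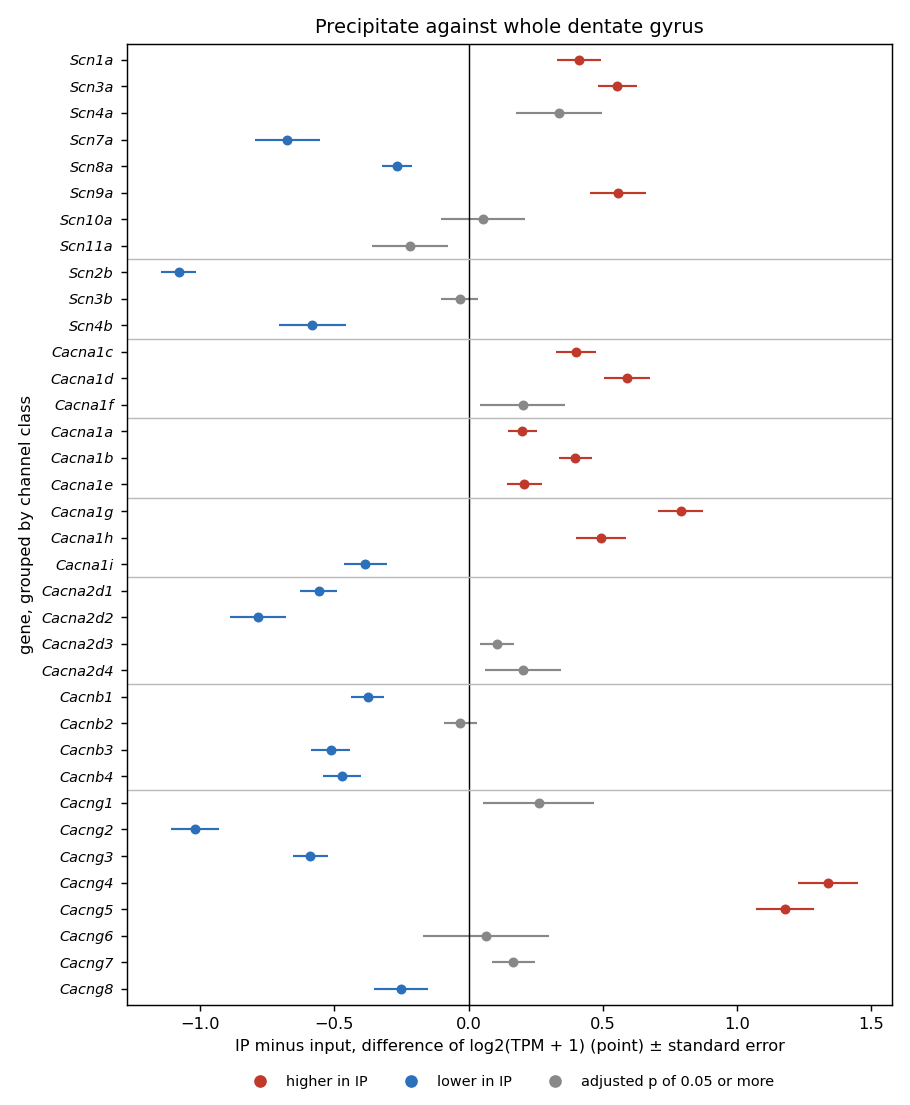
Difference between IP and input on the log2(TPM + 1) scale (x axis, point ± standard error from the fit to 24 libraries) for 36 of the tested genes, grouped by channel class; red is higher in IP, blue lower, grey an adjusted p of 0.05 or more. The P/Q-, N- and R-type pores are red, and no calcium channel β or α2δ gene is.

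At day 11, 22 members differed between IP and input, 7 higher and 15 lower (41.2% of all genes differed, 29.2% higher and 12.1% lower). At day 18, 26 members differed, 13 in each direction (64.0% of all genes, 33.0% higher and 31.0% lower). At day 27, 22 members differed, 13 higher and 9 lower (48.9% of all genes, 34.6% higher and 14.3% lower). With median-of-ratios scaling these splits were 4 higher and 20 lower at day 11, 11 and 15 at day 18, and 7 and 13 at day 27. Cacng4 was higher in IP by 1.29, 1.33 and 1.40 on days 11, 18 and 27, and Cacng5 by 1.24, 1.09 and 1.21. Here and in what follows, the 4 libraries of a day are given with the 2 running ones first. At day 11 Cacng4 stood at 28.9, 28.3, 30.9 and 33.1 TPM in IP and 19.6, 9.11, 10.9 and 9.81 TPM in input. Cacng5 stood at 10.9, 18.5, 17.1 and 18.2 TPM in IP and 7.69, 5.35, 6.64 and 5.23 TPM in input on that day. Neither TARP overlapped between the fractions on any of the 3 days. Scn9a, a channel best known from peripheral sensory neurons, was at 7.89, 10.0, 8.91 and 10.8 TPM in IP and 3.46, 5.25, 4.23 and 5.91 TPM in input at day 11, a difference of 0.88 ± 0.18.

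On the lower side, Scn2b was at 50.6, 51.4, 59.6 and 59.9 TPM in IP and 153, 179, 131 and 182 TPM in input at day 11. Its difference was -1.52 at day 11, -0.86 at day 18 and -0.87 at day 27. Cacng2 was at -1.32, -0.63 and -1.11. At day 27 Cacng2 had 23.98, 26.7, 21.8 and 21.4 TPM in IP and 56.3, 46.1, 53.6 and 51.0 TPM in input, without overlap. At day 18 Scn7a and Scn4b reached a mean of 5 TPM in input only, so that their level rests on the group where they were high. Scn7a stood at 1.46, 2.17, 2.65 and 3.15 TPM in IP and 9.77, 5.95, 5.85 and 5.49 TPM in input, a difference of -1.20 ± 0.21. Scn4b stood at 2.19, 1.94, 1.5 and 1.46 TPM in IP and 5.37, 5.46, 6.35 and 4.22 TPM in input, a difference of -1.19 ± 0.22. That day was also the day of the highest olfactory receptor level in input.

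The next comparison followed the precipitate with time after the start of treatment. Letters a and b occur only at day 11, c and d only at day 18, and e and f only at day 27. A change with time therefore cannot be told apart from any other difference between these sets of libraries, in either fraction. From day 11 to day 27, 13 of the 38 tested members rose in IP and none fell. They were a TARP (Cacng8), all 3 P/Q-, N- and R-type pores (Cacna1a, Cacna1b and Cacna1e), the T-type pores Cacna1h and Cacna1i, the L-type pore Cacna1c, the calcium channel β genes Cacnb1, Cacnb2 and Cacnb3, the sodium channel α gene Scn8a and the sodium channel β genes Scn2b and Scn3b. In the fit to the 12 IP libraries (17282 genes tested), the members called higher were 34.2% against 11.4% of all genes, and the members called lower 0 against 3.88% of all genes. Either way, 15.3% of all genes were called. The members' median difference was 0.44, and that of all genes 0.15. With median-of-ratios scaling the median of all genes was 0.02, and 12 of the 13 were called higher and none lower.

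Cacng8, a TARP of hippocampal AMPA receptors, stood at 54.1 and 64.4 TPM in running and 80.1 and 85.3 TPM in sedentary IP libraries of day 11. At day 27 it stood at 155 and 162 TPM in running and 138 and 125 TPM in sedentary libraries. All 4 libraries of day 27 were above all 4 of day 11, and the difference was 1.04 ± 0.12 (adjusted p = 0.000134). Cacna1h, the leading T-type pore, went from 34.9 and 44.9 TPM (running) and 47.6 and 49.7 TPM (sedentary) to 83.8 and 92.9 TPM and 71.7 and 73.1 TPM, a rise of 0.85 ± 0.11 (adjusted p = 0.000236). Cacna1e went from 130 and 162 TPM (running) and 180 and 185 TPM (sedentary) to 261 and 306 TPM and 242 and 249 TPM, a rise of 0.69 ± 0.11 (adjusted p = 0.00112). For these genes the ranges of day 11 and day 27 did not overlap either.

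The other 10 rose by 0.34 (Cacnb2) to 0.60 (Cacna1a), with adjusted p of 0.00107 to 0.0413. Scn8a rose by 0.51 ± 0.10, from 97.1 ± 8.97 to 139 ± 15.1 TPM (mean ± SD, n = 4). Scn2a1 rose by 0.39 ± 0.10 (adjusted p = 0.0201). Members that did not pass included the genes highest in IP relative to input: Cacng4 was at -0.14 ± 0.14 and Cacng5 at 0.06 ± 0.17. Scn3a was at 0.35 ± 0.12 (adjusted p = 0.0704) and Scn1a at 0.05 ± 0.14. None of the 4 α2δ genes passed, with differences of -0.07 (Cacna2d2) to 0.39 (Cacna2d4). For 16 members every IP library of day 27 was above every one of day 11 (13.2% of all genes), and for none was the order reversed (4.80% of all genes).

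The rise rested in part on the libraries of day 11. Without both day 11 IP libraries of letter a, of which the running one had the high Rpph1 share, 7 members were called (Cacng8, Cacna1h, Cacna1e, Cacna1a, Cacnb1, Scn8a and Scn2b), all among the 13, and the members' median was 0.23. That fit had 636 calls among all genes in place of 2642. Without running library b of day 11 the count was 20. The least stable calls were those of Cacna1i and Cacnb2, which held in 4 and 8 of 16 alternatives. Cacna1i also overlapped between the days, reaching 9.75 TPM at day 11 and starting at 8.52 TPM at day 27.

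Markers of cell types moved over the same days in IP. The summed level of 8 mature granule neuron markers was 2602 to 3001 TPM at day 11 and 3443 to 5566 TPM at day 27, and 5 of the 8 rose. The summed level of 8 neural stem and dividing cell markers was 666 to 857 TPM at day 11 and 425 to 606 TPM at day 27, and 5 of the 8 fell. Of 8 immature neuron markers 2 fell, with a sum of 1286 to 2027 TPM at day 11 and 921 to 1437 TPM at day 27. Of 8 microglia markers 3 fell, with a sum of 148 to 206 TPM at day 11 and 87.2 to 141 TPM at day 27, and of 8 interneuron markers 1 rose and 2 fell. Their part in the channel result was not tested.

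**Figure D3:**
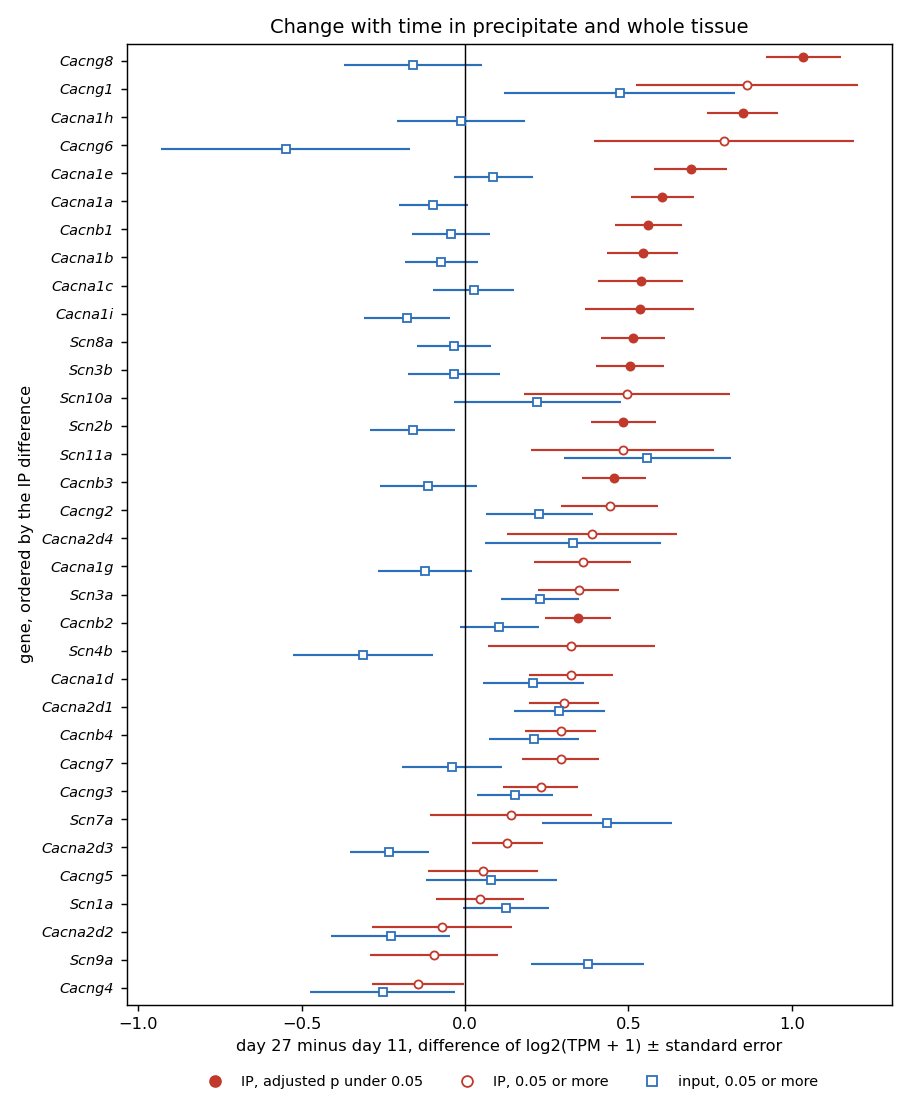
Difference between day 27 and day 11 on the log2(TPM + 1) scale (x axis, ± standard error) in IP (red circles) and input (blue squares) for 34 of the genes tested in both fractions, ordered by the IP difference; filled symbols have an adjusted p under 0.05. Filled symbols occur in IP only, 13 of them, and all lie to the right of 0.

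At the intermediate time, 9 members were higher in IP at day 18 than at day 11 and none was lower (5.66% of all genes were called, 4.56% higher and 1.10% lower). They were Cacng8 (0.61 ± 0.12), Cacna1g (0.56 ± 0.15), Cacna1h (0.54 ± 0.11), Cacna1e, Cacng7, Cacna1a, Cacna1b, Cacnb1 and Scn2b (0.36 to 0.48 for the last 6). At day 18 Cacng8 stood at 93.9 and 109 TPM in running and 131 and 99.2 TPM in sedentary libraries, all above day 11. Cacna1h stood at 69.0 and 62.7 TPM in running and 65.5 and 59.7 TPM in sedentary libraries, also all above day 11. Cacna1g stood at 39.2 and 28.8 TPM in running but 19.4 and 19.1 TPM in sedentary libraries, against 14.5 and 22.1 TPM (running) and 16.3 and 15.8 TPM (sedentary) at day 11, so that its ranges overlapped. The count was unstable: it was 5 with no filter on low values, 4 with median-of-ratios scaling, and 0 without sedentary IP library a of day 11 or without both libraries of that letter. Between day 18 and day 27 no member was called in IP by limma (0.122% of all genes were, 0.0694% higher and 0.0521% lower). An unadjusted p under 0.05 was found for 7 members, which is 18.4% of them against 13.3% of all genes. Among the lowest p were those of Cacng8 (0.42 ± 0.12, adjusted p = 0.132) and Cacng1 (1.00 ± 0.34, adjusted p = 0.219).

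**Figure D4:**
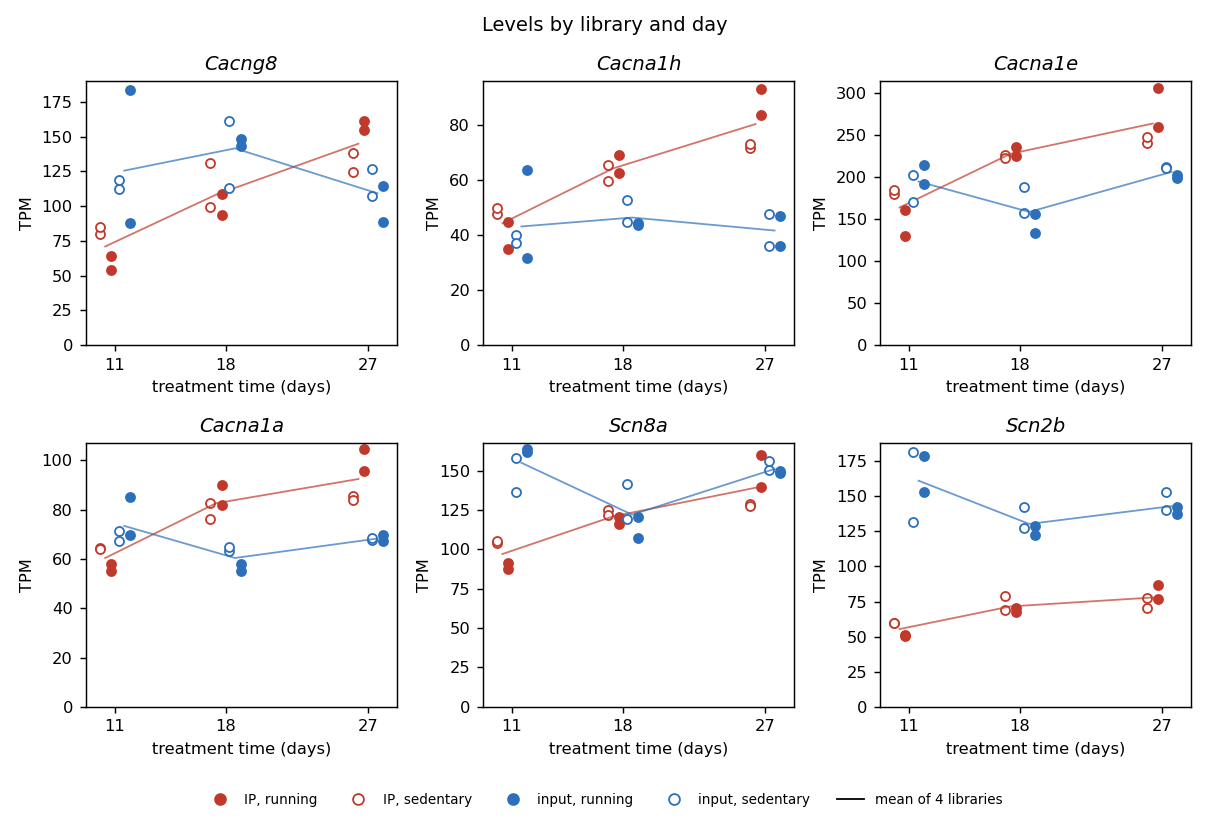
TPM (y axis) by treatment time in days (x axis) for 6 genes in IP (red) and input (blue) libraries; filled points are running, open points sedentary, and lines join the means of 4 libraries. In IP all 4 libraries of day 27 lie above all 4 of day 11 for each of the 6 genes.

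Whole dentate gyrus did not show these calls over the same interval. Between day 11 and day 27 no member was called in input by limma, none had an unadjusted p under 0.05 (14.3% of all genes did), and no gene of the 20462 tested was called. The lowest p were those of Scn11a (0.56 ± 0.26), Scn7a (0.43 ± 0.20) and Scn9a (0.38 ± 0.17), with adjusted p of 0.353 to 0.357. For 3 of 36 members every input library of day 27 was above every one of day 11 (4.48% of all genes), namely Scn7a, Scn9a and Cacna2d1.

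Whether the change differed between the fractions was tested directly, as the change of the difference between IP and input from day 11 to day 27. For 6 of 38 members (15.8%) it was positive past the threshold and for none negative, against 1.78% of all genes called, 1.46% positive and 0.323% negative. They were Cacng8, Cacna1a, Scn2b, Cacna1b, Cacnb1 and Scn8a, from 0.55 to 1.19. Of 29 alternatives the call held in 27 for Cacna1a and 22 for Cacng8, and in 5 (Scn8a) to 10 (Cacna1b) for the others. In IP Cacnb1 stood at 54.7, 63.4, 58.6 and 60.0 TPM on day 11. On day 27 it stood at 111 and 105 TPM in running but 69.1 and 73.3 TPM in sedentary libraries. For Cacng8 the change was 1.19 ± 0.25 (adjusted p = 0.0169): its input libraries stood at 184, 88.0, 112 and 119 TPM at day 11 and 114, 88.8, 127 and 107 TPM at day 27, with overlapping ranges. For Cacna1a it was 0.70 ± 0.13 (adjusted p = 0.0107). Cacna1a stood at 54.9, 58.0, 64.6 and 64.0 TPM in IP at day 11 and 95.7, 105, 85.6 and 83.8 TPM at day 27, and at 85.2, 69.8, 67.4 and 71.1 TPM and then 69.5, 67.2, 67.7 and 68.6 TPM in input. In IP the days were apart and in input they overlapped. For Scn2b it was 0.64 ± 0.16 (adjusted p = 0.0408): at day 27 it had 76.5, 87.0, 70.6 and 77.4 TPM in IP, all above day 11, and 142, 137, 140 and 153 TPM in input, within the range of day 11. The count was 3 with no filter on low values, 0 without both day 11 IP libraries of letter a, and 1 to 12 when 1 library was left out. With median-of-ratios scaling it was 5: Cacng8, Cacna1a and Cacna1b of the 6, with Cacna1h and Cacna1i added. The median over members was 0.35 and that over all genes -0.01.

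Input libraries of day 18 differed from those of the other days in many genes. Against day 11, 12 of 36 members differed (6 without sedentary input library b of day 11 or c of day 18, and 6 to 15 over all such fits without 1 library), 7 higher and 5 lower, where 49.2% of all genes did, 37.8% higher and 11.4% lower. With median-of-ratios scaling the count was 22, with 6 higher and 16 lower. Those higher were genes of low level, among them Scn11a (1.81), Scn10a (1.25), Cacng1 (1.15), Scn7a (0.91), Cacna2d4 (0.80) and Scn4b (0.56). Scn7a was at 2.31, 2.98, 3.61 and 3.40 TPM on day 11 and 9.77, 5.95, 5.85 and 5.49 TPM on day 18. Scn4b was at 4.06, 2.48, 3.79 and 3.01 TPM on day 11 and 5.37, 5.46, 6.35 and 4.22 TPM on day 18. In each case all libraries of day 18 were above all of day 11. Those lower were Cacna2d3 (-0.57), Cacng2 (-0.56), Cacnb1 (-0.45), Scn8a (-0.35) and Cacna1a (-0.27). Of 15 alternatives the call held in only 4 for Scn4b and 4 for Cacna1a, and in 10 (Cacna2d4) to 15 for the other members named here.

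Cacna2d3, an α2δ subunit, fell from 70.0, 75.7, 63.9 and 75.1 TPM on day 11 to 45.6, 46.0, 42.8 and 56.4 TPM on day 18, without overlap. Cacnb1 fell from 116, 116, 90.8 and 113 TPM to 73.3, 75.2, 86.5 and 83.1 TPM, also without overlap. Cacng2 fell from 38.3, 53.8, 34.6 and 52.3 TPM to 25.6, 25.0, 29.7 and 39.6 TPM, with overlap. The mean olfactory receptor level in input was 1.99 ± 1.61 TPM on day 11, 12.3 ± 3.43 TPM on day 18 and 4.24 ± 1.27 TPM on day 27 (mean ± SD, n = 4), and its part in these differences was not tested. Between day 18 and day 27, 13 members differed in input, 9 higher and 4 lower (37.1% of all genes, 10.4% higher and 26.7% lower). The count was 8 with a pseudocount of 0.1. It was 2 without sedentary library c of day 18, 3 to 6 without running library c of day 18 or any 1 of the 4 libraries of day 27, and 11 to 15 without any other library. The largest were Cacng2 (0.79 ± 0.16), Cacna2d1 (0.54 ± 0.14) and Cacna1d (0.49 ± 0.16) on the higher side, and on the lower side Scn4b (-0.87 ± 0.21), next to Scn10a and Scn11a at lower levels. Cacng2 reached 56.3, 46.1, 53.6 and 51.0 TPM on day 27, Cacna2d1 went from 98.9, 108, 102 and 148 TPM to 169, 157, 168 and 167 TPM, and Cacna1d from 29.3, 33.2, 32.0 and 50.8 TPM to 50.5, 48.9, 49.1 and 53.2 TPM. Scn4b went to 2.81, 2.21, 2.57 and 2.27 TPM, below all libraries of day 18.

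Genes that work with these channels were followed in 5 further lists, to be read against the 11.4% of all genes called higher and 3.88% called lower in IP from day 11 to day 27, with a median of 0.15. Of 18 genes of calcium stores and calcium extrusion, 10 rose in IP from day 11 to day 27 and none fell, with a median of 0.44. The largest rises were those of Slc8a2, a sodium-calcium exchanger (1.38 ± 0.12), Orai2, a store-operated channel (0.82 ± 0.10), and Atp2b2, a plasma membrane calcium pump (0.79 ± 0.11). Of 6 genes of the axon initial segment, where Scn8a channels are anchored, 4 rose: Trim46 (0.65), Mapre3 (0.50), Sptbn4 (0.46) and Nrcam (0.35), while Ank3, the anchoring protein ankyrin-G, was at 0.10 ± 0.13. Of 4 FGF homologous factors, which bind the tails of sodium channels, Fgf13 rose (0.55 ± 0.12). Of 4 tested genes of the sodium leak channel complex, Nalcn (0.43) and Fam155a (0.36) rose. Of 10 tested regulators of calcium channels, the release-site proteins' partner Rimbp2 (0.55) and the calcium-binding protein Cabp1 (0.37) rose and Gem, a small GTPase that inhibits calcium channels, fell by 0.60.

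Between IP and input, where 41.4% of all genes were higher and 28.5% lower, 5 of the 6 axon initial segment genes were higher in IP, led by Ank3 (1.64 ± 0.08) and Sptbn4 (1.48 ± 0.09), and Mapre3 was lower. Of the 4 FGF homologous factors 3 were lower (Fgf12, Fgf13 and Fgf14, at -1.11, -1.08 and -0.90). Of the channel regulators 3 were higher (Gem 1.48, Rims2 0.35 and Rims1 0.28) and 2 lower, of the leak channel genes 2 were higher and 1 lower, and of the calcium store and extrusion genes 7 were higher and 8 lower.

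Several members lie near each other in the genome (mm10; GENCODE M21 annotation). Scn3a, Scn1a, Scn9a and Scn7a lie in a stretch of chromosome 2 (65457118 to 66784914) that also holds Scn2a. On chromosome 7, Cacng7 (3332955 to 3368221), Cacng8 (3390683 to 3415648) and Cacng6 (3424195 to 3435667) follow each other on the plus strand. Cacng8 rose in IP from day 11 to day 27 while nearby Cacng7 was at 0.29 ± 0.12 (adjusted p = 0.104). On chromosome 11, Cacng4 (107732357 to 107794557) and Cacng5 (107874605 to 107915055), the members highest in IP relative to input, lie close together on the minus strand, with Cacng1 beside them. Scn10a and Scn11a, which were higher in input on day 18 than on day 11, lie close together on chromosome 9 (119608456 to 119825456).

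Sequences before the transcript start were taken from RefSeq (GRCm38.p6), which had 39 windows for 29 of the 39 members and for 10 of the 13 that rose in IP. The 250 bases upstream of the start are shown for the 2 that rose and whose window lies wholly before the annotated gene, Cacna1b and Cacna1i, and for Cacng5, which was high in IP at all times and showed no call with time. Each is written 5′ to 3′ on the gene's strand, and capitals mark the GC box GGGCGG or its reverse complement.
Cacna1b, chr2:24763153-24763402, minus strand: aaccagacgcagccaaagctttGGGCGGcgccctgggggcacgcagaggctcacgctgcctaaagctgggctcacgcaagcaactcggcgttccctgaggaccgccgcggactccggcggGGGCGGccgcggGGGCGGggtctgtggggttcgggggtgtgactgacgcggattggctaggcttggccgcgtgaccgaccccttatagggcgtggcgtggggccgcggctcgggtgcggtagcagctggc
Cacna1i, chr15:80286988-80287237, plus strand: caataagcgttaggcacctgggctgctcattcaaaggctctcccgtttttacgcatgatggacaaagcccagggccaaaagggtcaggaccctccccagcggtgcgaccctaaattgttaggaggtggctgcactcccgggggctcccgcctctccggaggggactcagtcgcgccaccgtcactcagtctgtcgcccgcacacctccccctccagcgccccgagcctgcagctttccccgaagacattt
Cacng5, chr11:107915056-107915305, minus strand: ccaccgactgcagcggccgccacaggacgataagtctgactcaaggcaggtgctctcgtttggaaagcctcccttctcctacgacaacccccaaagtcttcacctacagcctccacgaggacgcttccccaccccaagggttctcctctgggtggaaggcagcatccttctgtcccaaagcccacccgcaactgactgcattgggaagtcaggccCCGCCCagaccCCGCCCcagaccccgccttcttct
The GC box was found on either strand in 15 of the 39 member windows (38.5%) and in 32.7% of all 32851 windows of this length, and in 5 of the 16 windows of members that rose (31.3%). The TATA box TATAAA was in 1 member window (2.56%) and in 12.4% of all windows. The cyclic AMP response element TGACGTCA and the core of the neuronal repressor element RE1 were in no member window and in 1.55% and 0.00913% of all windows. The windows shown hold no motif of these other than the GC box. Cacna1b holds 3 GC boxes, Cacng5 holds 2 and Cacna1i none, so the 2 that rose did not share this motif. The rise of Cacna1i was called in only 4 of 16 alternatives.

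The last comparison asked whether running altered these RNAs. In IP, over the mean of the 3 days, no member was called by limma in the fit to 12 libraries (0.00579% of all genes, 1 gene of 17282, were called), and 5 members had an unadjusted p under 0.05, which is 13.2% of the members and 14.2% of all genes. Of the 27 members at 5 TPM or more in IP, the 95% interval of the running difference lay within 0.5 of 0 on the log2 scale for 23, and within 1 for all 27. The bounds of these intervals reached from -0.76 to 0.77. A difference of the size seen between days, such as that of Cacng8, lay outside the interval for Cacng8 itself (-0.33 to 0.07).

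The 3 members of lowest p were Cacna1g, Cacna1i and Scn1a. Cacna1g was at 14.5 and 22.1 TPM in running and 16.3 and 15.8 TPM in sedentary IP libraries on day 11. It was at 39.2 and 28.8 TPM against 19.4 and 19.1 TPM on day 18, and at 27.5 and 27.6 TPM against 17.1 and 18.2 TPM on day 27. Running libraries were thus above sedentary ones on days 18 and 27 and overlapped them on day 11. The difference was 0.51 ± 0.12 (95% interval 0.26 to 0.77, adjusted p = 0.153). In input the 2 running libraries were above the 2 sedentary ones on each day (13.2 to 15.9 against 8.39 to 11.5 TPM on day 11, 13.0 to 14.97 against 10.9 to 12.3 TPM on day 18, and 11.3 to 13.3 against 9.30 to 10.0 TPM on day 27), a difference of 0.36 ± 0.12 (adjusted p = 0.953).

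Cacna1i, the third T-type pore, was lower in running than in sedentary IP libraries on each day: 5.27 and 6.64 against 7.86 and 9.75 TPM on day 11, 8.02 and 8.33 against 13.6 and 12.2 TPM on day 18, and 8.52 and 11.0 against 11.8 and 12.8 TPM on day 27. Its difference was -0.47 ± 0.14 (95% interval -0.76 to -0.18, adjusted p = 0.193). Scn1a was at 45.9 and 55.1 against 58.5 and 62.7 TPM on day 11, 42.5 and 50.6 against 64.5 and 63.4 TPM on day 18, and 42.1 and 62.6 against 55.5 and 72.2 TPM on day 27, with overlap on the last day. Its difference was -0.34 ± 0.11 (95% interval -0.57 to -0.10, adjusted p = 0.217). None of the 3 passed the threshold over all genes in this fit, which took no account of the replicate letters. Across all days no member had running and sedentary IP libraries without overlap (0.0637% of all genes were higher and 0.457% lower without overlap).

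**Figure D5:**
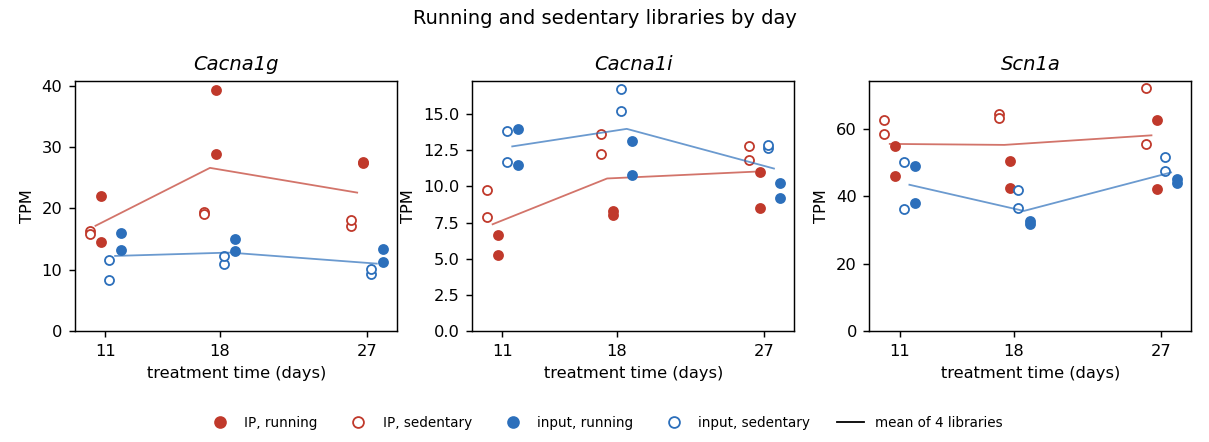
TPM (y axis) by treatment time in days (x axis) for the 3 genes of lowest p for running in IP (red) and input (blue); filled points are running, open points sedentary libraries, and lines join the means of 4 libraries. Filled red points lie above open red points for Cacna1g on days 18 and 27 and below them for Cacna1i on each day. Neither gene passed the threshold in the fit that took no account of the replicate letters.

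At single days no member was called in IP either (no gene on days 11 and 18, and 0.0289% of all genes on day 27, 0.00579% higher and 0.0231% lower). An unadjusted p under 0.05 was found for 2, 3 and 4 members on days 11, 18 and 27. These were 5.26%, 7.89% and 10.5% of the members, against 4.81%, 8.97% and 9.92% of all genes. The lowest p were those of Cacng7 (-0.51 ± 0.17), Cacng8 (-0.48 ± 0.16) and Cacna1i (-0.50 ± 0.23) on day 11, with an adjusted p of 0.880 each. On day 18 they were those of Cacna1g (0.78 ± 0.21, adjusted p = 0.400), Cacna1i (-0.60 ± 0.23, adjusted p = 0.527) and Scn1a (-0.45 ± 0.19, adjusted p = 0.544). On day 27 they were those of Cacnb1 (0.59 ± 0.15, adjusted p = 0.317), Cacna1g (0.62 ± 0.21, adjusted p = 0.410) and Cacnb3 (0.35 ± 0.14, adjusted p = 0.453). The test of a running effect that differs between days called no member by limma (1 gene, 0.00579% of all, was called). In that test 6 members had an unadjusted p under 0.05, which is 15.8% of the members against 5.40% of all genes. Cacng7, Cacnb1 and Cacng8 had the lowest p, with adjusted p of 0.843 to 0.921.

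The running difference in IP minus that in input called no member by limma and no gene, and no member had an unadjusted p under 0.05 (5.98% of all genes did). The lowest p were those of Cacnb1 (0.23 ± 0.12), Scn9a (-0.34 ± 0.21) and Scn3b (0.21 ± 0.14), with adjusted p of 0.803 to 0.809. In input no member and no gene was called for running. An unadjusted p under 0.05 was found for 2 members (5.56%, against 4.19% of all genes), Cacna1g and Cacna1i (-0.25 ± 0.11), with Scn3b (-0.25 ± 0.12) next. None of the genes in the 5 lists of partner genes passed the test for running in IP.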

How the data were processed

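Gene expression was measured by RNA sequencing (SMARTer Stranded Total RNA-Seq, per the labels' protocols) in 12 IP and 12 input libraries. The authors deposited a table of TPM per gene, made with RSEM on mm10 per the submitters' processing notes; for the RSEM version, aligner, annotation and strand setting the record is "not given in the sources used here", and overlapping antisense genes may share reads. TPM keeps no depth, and its sum is fixed, so a gene that takes a large share lowers the others. Groups, days and letters came from the labels. Here limma 3.58.1 in R 4.3.3 was run on log2(TPM + 1), which understates the change of low genes, with a mean of at least 1 TPM as filter, separately on all 24 libraries (IP against input), 12 IP and 12 input libraries, with a mean per group and Benjamini-Hochberg adjustment over all genes tested at 0.05. Cacna1s fell below the filter in the fits to all and to IP libraries, and Cacna1s, Cacna1f and Scn4a in the fit to input libraries. The fit to IP libraries was tested on simulated data for day 27 against day 11, with true changes of 1 or 2 on the log2 scale. Smaller changes and the other comparisons were not simulated. All members entered the fits and the counts; the results of 2 of them are not reported here by name, nor shown in the figures. Library values were given for the 3 members with the largest called change in each direction and a mean of at least 5 TPM in the higher group; where fewer than 3 passed, the 3 of lowest p were named. The members, the 5 partner lists and the 12 marker lists were chosen with earlier results of these data known. The other marker lists showed between IP and input 2 of 8 higher and 6 lower (pyramidal and mossy neuron), 3 and 3 of 8 (astrocyte), 0 and 5 of 8 (oligodendrocyte precursor), 1 and 6 of 8 (oligodendrocyte), 0 and 8 of 8 (microglia), 2 and 2 of 8 (endothelial and mural), 0 and 3 of 5 (choroid plexus), and 1 and 4 of 6 tested (skeletal muscle and heart). Libraries of the same letter were not treated as pairs. Correlations of their deviations were 0.05 to 0.27 between running and sedentary, highest at day 11 (0.20 in IP and 0.27 in input). Between IP and input they were -0.28 to -0.01. Alternatives were a pseudocount of 0.1, no filter, median-of-ratios scaling, a letter block, and leaving out each library; leaving out the day 18 libraries in the IP against input test was also run, and leaving out both day 11 IP libraries of letter a was chosen after seeing the data.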

Additional observations from a re-analysis of the deposited data

Results flagged for a closer look

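For 6 members the change with time differed between the fractions by the test of that difference itself: the difference between IP and input grew from day 11 to day 27 past an adjusted p of 0.05 (limma). On the log2(TPM + 1) scale the growth was 1.19 for Cacng8, 0.70 for Cacna1a, 0.64 for Scn2b, 0.62 for Cacna1b, 0.60 for Cacnb1 and 0.55 for Scn8a. In IP these genes rose, by 0.48 (Scn2b) to 1.04 (Cacng8), and in input their differences over the same days were -0.03 (Scn8a) to -0.16 (Cacng8 and Scn2b), none called. The values rest on 4 libraries a day in each fraction, and none of the 6 was called without both day 11 IP libraries of letter a. Leaving out 1 library gave 1 to 12 called members. With median-of-ratios scaling Cacng8, Cacna1a and Cacna1b kept their call, and Scn2b, Cacnb1 and Scn8a lost it. The days also held different library letters, which cannot be told apart from time.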

How the results depend on the processing

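The differences between IP and input were the most stable result. Of the 27 members called, 27 were called with a pseudocount of 0.1, 27 with no filter and 23 with median-of-ratios scaling, which reversed Cacna1a (-0.079) and Cacna1e (-0.0736); without the day 18 libraries 23 of them were, and without both day 11 IP libraries of letter a 26. Leaving out 1 library gave 26 to 28 calls (18 to 23 at day 11, 24 to 27 at day 18 and 18 to 24 at day 27). For IP at day 27 against day 11 it gave 10 (without sedentary a of day 11 or sedentary f of day 27) to 20 (without running b of day 11), and leaving out both libraries of letter a gave 7, against 13. For IP at day 18 against day 11 the count was 9, with 5 under no filter, 4 under median-of-ratios scaling, 0 without both libraries of letter a, and 0 (without sedentary a of day 11) to 14 (without running b of day 11) when 1 library was left out. For the change of IP minus input the count was 6, with 3 under no filter, 0 with the replicate block, 0 without both libraries of letter a, and 1 to 12 when 1 library was left out. The 1 came without IP running a, IP sedentary a (day 11), IP sedentary e, input running f or input sedentary f (day 27), and the 12 without input running b of day 11. Under median-of-ratios scaling that count was 5, of which 3 were among the 6. For input at day 18 against day 11 the count of 12 became 22 with median-of-ratios scaling and 6 (without sedentary b of day 11 or sedentary c of day 18) to 15 when 1 library was left out. For input at day 27 against day 18 the count of 13 became 8 with a pseudocount of 0.1 and 2 (without sedentary c of day 18) to 15 when 1 library was left out. The cause of these changes was not tested. With the letter as a replicate block, 2 members were called for running in IP by limma, Cacna1g (0.51, adjusted p = 0.0325) and Scn1a (-0.34, adjusted p = 0.0454). In all 440 genes were called in place of 1, but the labels do not say what libraries of the same letter share. With the block every IP against input call was kept. No member was called for running under any other alternative, and leaving out 1 library gave 0 to 0. TPM gives no read depth, so what depth limits could not be said.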
